A study of Mus musculus with 71 samples.

Results

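The genes Asb2, Tnfrsf19, Steap4, Nedd9, Ffar2, Gpr25, Ociad2 and Pdcd1 were described here, which are 8 of the 25579 genes in the Pax5 expression tables. They were chosen from these data for a difference in transcript level between mutant pro-B cells. Some of these lacked the C-terminal regulatory domain CRD1 of Pax5 and had entered the B cell lineage. The others lacked both CRD1 and CRD2 and are called uncommitted pro-B cells in the study. Their levels in those mutants are therefore given as a description without a test. Tests compared only genotypes and cell stages that the selection did not use. In the comparisons with wild type, however, the spread was estimated from all 25 libraries, which include those mutants. The first 4 genes were higher in wild-type pro-B cells than in progenitors without Pax5, and the next 3 were highest without Pax5. Pdcd1 also had lower values without Pax5 than in wild type, but its lowest were in pro-B cells that lack both CRD1 and CRD2.

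Polyadenylated RNA of sorted cells from C57BL/6 mice was sequenced in 48 libraries of 3 experiments. The first comprised 25 bone marrow libraries of 11 Pax5 genotypes, namely 5 wild-type Pax5 +/+ libraries and 2 of each of Pax5 ∆OP/∆OP, ∆HD/∆HD and ∆OP,HD/∆OP,HD (deletions of the octapeptide, the partial homeodomain and both, in the central part of the protein), ∆CRD2/∆CRD2, ∆CRD2/-, ∆CRD1/∆CRD1, ∆CRD1/-, ∆CRD1,2/∆CRD1,2, ∆CRD1,2/- and Vav-Cre Pax5 fl/fl (the ∆ is written D in most labels, and "-" is a Pax5 null allele). The second comprised 2 libraries each of Vav-Cre Pax5 fl/+, Vav-Cre Pax5 Prd/fl and Vav-Cre Pax5 fl/fl cells, all carrying the Vav-Cre transgene, in which the Prd allele encodes the DNA-binding paired domain alone. The third followed wild-type T cell development with 2 LMPP (lymphoid-primed multipotent progenitor) libraries of bone marrow and thymic libraries of the double-negative stages DN1 (3), DN2a (3), DN2b (3), DN3a (2) and DN3b (2), with 2 libraries of Rag2 -/- DN3a cells. In each of DN1, DN2a and DN2b, 2 of the 3 libraries carry the same replicate number and may not be separate samples.

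These groups have limits as models. Vav-Cre deletes floxed alleles in haematopoietic stem cells and all blood lineages, the ∆HD and CRD deletions were made by genome editing of zygotes, and the labels give no age of the mice. Wild-type, ∆OP, ∆HD, ∆OP,HD, ∆CRD2 and ∆CRD1 cells were sorted through a gate for committed pro-B cells, whereas ∆CRD1,2 and Vav-Cre Pax5 fl/fl cells were sorted through another gate as Ly6D-positive, Kit-high, B220-positive cells, and the labels of the Prd experiment name an alternative gating of its Prd/fl and fl/fl progenitors. The gate and the genotype cannot be told apart. Reads of the ∆CRD1/∆CRD1, Vav-Cre Pax5 fl/fl and wild-type 1, 2 and 5 libraries were 50 nt long. Those of the other pro-B libraries were 100 nt long. Read length and genotype therefore cannot be told apart between ∆CRD1/∆CRD1 or Vav-Cre Pax5 fl/fl cells and the other mutants. This includes the comparisons of ∆CRD1/∆CRD1 with ∆CRD1/- and with ∆CRD1,2/∆CRD1,2 cells. In bulk RNA, fewer cells that express a gene and less RNA per cell give the same value.

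Pax5 is the transcription factor that commits lymphoid progenitors to the B cell lineage. Through its paired domain it binds the genes it activates, such as those of pre-B cell receptor signalling, and the genes it represses, many of which are used in other blood lineages, while domains outside the paired domain contact activating and repressing cofactors. Pro-B cells are the earliest committed B cells, and progenitors without Pax5 stop before this step and keep the ability to form T cells when Notch signals are given. LMPPs feed the thymus, where Notch1 drives cells through DN1, DN2a and DN2b to DN3a, with commitment to the T cell lineage between DN2a and DN2b, and rearrangement of the T cell receptor β locus by Rag2 allows passage to DN3b.

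Markers were compared between wild-type and Vav-Cre Pax5 fl/fl libraries, and they do not check the labels of the domain deletions. The surrogate light chain gene Igll1 was at 4067 to 6029 TPM (transcripts scaled for gene length and library size) in wild-type cells and at 1325 and 1657 TPM in Vav-Cre Pax5 fl/fl cells, and the antigen receptor signalling gene Cd79a was at 2597 to 4361 TPM and at 439 and 452 TPM. Pax5 itself was still counted at 1609 and 1697 TPM in Vav-Cre Pax5 fl/fl cells against 342 to 524 TPM in wild type, and a level summed over the whole gene does not check a deletion inside it. Of the 4 DN2 to DN3 markers, Il2ra made up most of the sum in progenitors without Pax5 (34.1 and 58.1 TPM, with Ptcra at or below 0.407 TPM and Cd3e at or below 0.178 TPM). The summed level of 4 myeloid markers (Mpo, Elane, Csf1r and S100a8) was 145 to 1388 TPM in wild type, 128 to 919 TPM in Vav-Cre Pax5 fl/fl, 1513 to 2031 TPM in ∆OP/∆OP and 216 to 3400 TPM in ∆CRD2/- libraries, and that of 4 NK and innate lymphoid markers was 0.953 to 5.66 TPM in wild type and 13.2 to 27.7 TPM in Vav-Cre Pax5 fl/fl. Their part in the results below was not tested. The depth, recovered from the steps of the TPM values, was 10018678 to 43784791 reads per library in the Pax5 experiments and is unknown for the T cell stages.

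On the mouse genome build GRCm38, the annotation places Asb2 at chr12:103321142-103356001, Tnfrsf19 at chr14:60963875-61046490, Nedd9 at chr13:41309581-41487362, Ffar2 at chr7:30818348-30823775, Gpr25 at chr1:136259797-136260873, Ociad2 at chr5:73322199-73341028 and Pdcd1 at chr1:94038305-94052553, all on the minus strand, and Steap4 at chr5:7960457-7982213 on the plus strand. All 8 are protein-coding genes. RefSeq lists 13 transcription starts for them on GRCm38.p6, and the 250 bases before a start are shown for 2 genes that were high without Pax5 and 2 that were high with it, because they respond in opposite directions. Capitals mark the letters searched on both strands: GCNTGAC (part of a Pax5 recognition sequence), GTGGGAA (Rbpj, the DNA-binding partner of Notch), CANCTG (E-box) and the palindrome of Ebf1.
Ffar2, chr7:30823776-30824025, minus strand: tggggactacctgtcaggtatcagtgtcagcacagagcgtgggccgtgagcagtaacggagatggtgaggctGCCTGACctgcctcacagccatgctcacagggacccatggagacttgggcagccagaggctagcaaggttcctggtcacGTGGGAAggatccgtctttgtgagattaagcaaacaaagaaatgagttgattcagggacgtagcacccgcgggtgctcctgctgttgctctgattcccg
Gpr25, chr1:136260927-136261176, minus strand: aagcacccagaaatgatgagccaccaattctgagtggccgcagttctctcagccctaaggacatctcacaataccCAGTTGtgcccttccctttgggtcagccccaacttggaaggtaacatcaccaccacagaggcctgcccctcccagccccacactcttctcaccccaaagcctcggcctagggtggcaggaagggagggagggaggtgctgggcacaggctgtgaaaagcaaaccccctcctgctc
Asb2, chr12:103356002-103356251, minus strand: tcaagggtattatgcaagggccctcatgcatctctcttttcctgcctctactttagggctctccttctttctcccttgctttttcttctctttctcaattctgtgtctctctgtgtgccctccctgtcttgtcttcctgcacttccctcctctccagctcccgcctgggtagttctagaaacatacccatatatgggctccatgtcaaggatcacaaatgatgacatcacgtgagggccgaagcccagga
Steap4, chr5:7960222-7960471, plus strand: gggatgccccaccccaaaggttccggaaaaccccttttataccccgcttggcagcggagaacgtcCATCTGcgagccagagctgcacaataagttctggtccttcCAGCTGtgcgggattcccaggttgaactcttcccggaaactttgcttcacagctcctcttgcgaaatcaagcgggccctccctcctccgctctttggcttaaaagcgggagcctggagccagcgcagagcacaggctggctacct
The Ffar2 window holds the Pax5 letters 178 bases and the Rbpj letters 99 bases before the start. The Gpr25 window holds an E-box 175 bases and the Steap4 window E-boxes 185 and 145 bases before it, and the Asb2 window holds none of the 4 motifs. Over the 13 starts of the 8 genes, the Pax5 letters occurred at 1 start (8.79% of 32817 promoters of all genes), the Rbpj letters at 3 starts, all of Ffar2 and 2 of them with overlapping windows that hold the same match (5.42% of all promoters), an E-box at 5 (44.8%) and the Ebf1 letters at 0 (0.780%). No matches of different motifs overlapped one another. A match is a description of these letters and not a binding site.

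The first question was how the 8 genes behaved in the CRD mutants that selected them. Asb2 encodes a substrate receptor of an E3 ubiquitin ligase with ankyrin repeats and a SOCS box. It was at 46.1, 62.1, 41.2, 35.8 and 42.5 TPM in wild type, 29.5 and 34.2 in ∆CRD1/∆CRD1, 16.4 and 13.3 in ∆CRD1/-, 8.06 and 6.89 in ∆CRD1,2/∆CRD1,2, and 2.24 and 3.96 in ∆CRD1,2/- cells. Its level thus stepped down with every further loss, without overlap between neighbouring genotypes, to 0.193 and 0.388 TPM (4 reads in each library) in Vav-Cre Pax5 fl/fl progenitors. The fold between the double and the single deletion was 4.26 in homozygous and 4.79 in hemizygous cells.

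Tnfrsf19, a receptor of the TNF receptor family that is also called TROY, was at 179, 145, 133, 154 and 107 TPM in wild type and overlapped that range in ∆CRD1/∆CRD1 (154 and 143 TPM) and ∆CRD1/- cells (124 and 138 TPM). It was at 71.1 and 61.9 TPM in ∆CRD1,2/∆CRD1,2 and at 30.5 and 49.7 TPM in ∆CRD1,2/- cells, below every wild-type library. Steap4, a metalloreductase that reduces iron and copper, behaved in the same way, with 58.4 to 115 TPM in wild type, 95.2 and 103 TPM in ∆CRD1/∆CRD1, and 73.2 and 64.5 TPM in ∆CRD1/- cells. It was at 24.3 and 17.5 TPM in ∆CRD1,2/∆CRD1,2 and at 10.1 and 14.4 TPM in ∆CRD1,2/- cells. For these 2 genes, the loss of CRD1 alone left levels inside or near the wild-type range, and in the homozygous double deletion the mean was 2.16-fold lower than in wild type for Tnfrsf19 and 4.05-fold lower for Steap4.

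Nedd9 encodes a scaffold protein of the Cas family that acts in integrin and antigen receptor signalling. It was the most abundant of the 8 in wild-type cells, at 269, 220, 245, 248 and 236 TPM. Unlike Tnfrsf19 and Steap4, it was already lower after loss of CRD1, at 131 and 131 TPM in ∆CRD1/∆CRD1 and 121 and 140 TPM in ∆CRD1/- cells, and it was lower again at 69.2 and 73.3 TPM in ∆CRD1,2/∆CRD1,2 and 48.6 and 54.3 TPM in ∆CRD1,2/- cells. The mean Nedd9 level was the same with a single ∆CRD1 allele as with a pair of them (131 TPM in each), in libraries of different read length.

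Ffar2, a G protein-coupled receptor of short-chain fatty acids, was at 0.823, 1.32, 1.79, 2.38 and 2.26 TPM in wild type. It was at 3.20 and 2.99 TPM in ∆CRD1/∆CRD1, 5.86 and 5.70 in ∆CRD1/-, 16.6 and 19.6 in ∆CRD1,2/∆CRD1,2, and 20.3 and 20.2 in ∆CRD1,2/- cells. Here the mean in the double deletion was 5.86-fold that of the single one in homozygous cells and 3.51-fold in hemizygous cells.

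Gpr25, an orphan G protein-coupled receptor, showed the widest range. It was between 0.534 and 1.32 TPM in wild type (13 to 27 reads per library), at 9.56 and 7.31 TPM in ∆CRD1/∆CRD1, at 5.92 and 4.93 TPM in ∆CRD1/-, at 63.7 and 72.3 TPM in ∆CRD1,2/∆CRD1,2, and at 70.5 and 101 TPM in ∆CRD1,2/- cells. The mean was 8.05-fold higher in the double than in the single homozygous deletion and 15.8-fold higher in the hemizygous pair. In contrast to Ffar2, Gpr25 was no higher with a single ∆CRD1 allele than with a pair of them.

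Ociad2, a mitochondrial protein with an OCIA domain, was between 0.0962 and 0.789 TPM in wild type, which are 3 to 23 reads. It was at 1.22 and 0.991 TPM in ∆CRD1/∆CRD1, 2.71 and 2.04 in ∆CRD1/-, 6.29 and 6.78 in ∆CRD1,2/∆CRD1,2, and 14.6 and 6.79 in ∆CRD1,2/- cells. Its order of genotypes was that of Ffar2.

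Pdcd1 encodes PD-1, an inhibitory receptor best known from activated T cells. It was at 6.60, 4.92, 7.38, 8.11 and 6.05 TPM in wild type, at 4.94 and 9.28 in ∆CRD1/∆CRD1, and at 2.18 and 2.39 in ∆CRD1/- cells. It was lowest in the double deletions, with 0.248 and 0.621 TPM in ∆CRD1,2/∆CRD1,2 (6 and 15 reads) and 1.21 and 0.694 TPM in ∆CRD1,2/- cells, below its 3.03 and 3.52 TPM in Vav-Cre Pax5 fl/fl progenitors. It was the only one of the 8 whose mean in the double deletions lay outside the span from wild-type to Pax5-deficient cells.

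The study names limits of 5 TPM, of 3-fold between the hemizygous and of 2-fold between the homozygous mutants, beside a limit on the adjusted p that was not applied here. On means of the deposited TPM values 6 of the 8 genes lay past these folds and this level. Tnfrsf19 lay just inside with 2.23-fold and 3.26-fold. Nedd9 lay just outside with 1.84-fold and 2.54-fold, and Pdcd1 failed the hemizygous limits with 2.41-fold at 2.29 TPM. The folds of mean TPM need not equal those of the count model used in the study.

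**Figure D1:**
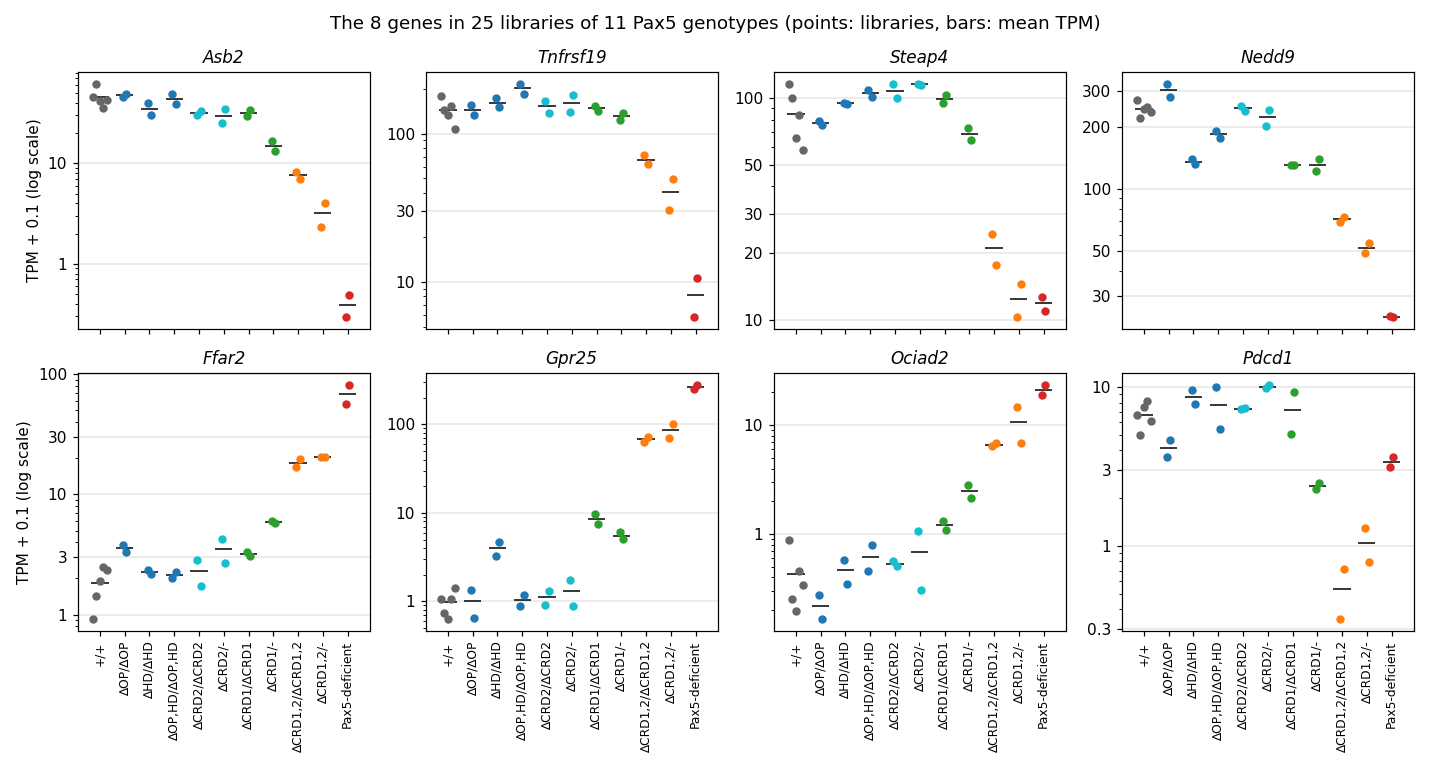
Transcript levels of the 8 genes in the 25 bone marrow libraries. Each panel plots TPM + 0.1 on a log axis by genotype, with points for libraries and bars for group means. In the ∆CRD1,2 and Pax5-deficient groups at the right, Asb2, Tnfrsf19, Steap4 and Nedd9 lie below wild type and Ffar2, Gpr25 and Ociad2 above it. Pdcd1 is lowest in the ∆CRD1,2 genotypes.

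The next question was whether the 8 genes depend on Pax5 as a whole. Between Vav-Cre Pax5 fl/fl progenitors and wild-type pro-B cells, 7 of the 8 differed at an adjusted p under 0.05, where 37.1% of the 14000 genes tested did so (limma on log2(TPM + 0.1), two-sided, Benjamini-Hochberg adjustment over all genes tested). All comparisons with wild type below come from this model of the 25 libraries with read length as a term. Wild type alone has both read lengths, so each difference is taken from the wild-type libraries of the same length. These are wild-type 1, 2 and 5 for Vav-Cre Pax5 fl/fl and wild-type 3 and 4 for the other genotypes tested. Asb2, Tnfrsf19, Steap4 and Nedd9 fell, and Ffar2, Gpr25 and Ociad2 rose.

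Tnfrsf19 stood at 5.68 and 10.6 TPM, Steap4 at 12.6 and 10.9 TPM and Nedd9 at 24.1 and 23.6 TPM in the progenitors, each far below its lowest wild-type library. The differences on the log2 scale were -7.04 ± 0.25 (SE) for Asb2 (limma adjusted p = 1.04e-12), -4.16 ± 0.25 for Tnfrsf19, -2.89 ± 0.22 for Steap4 and -3.33 ± 0.10 for Nedd9. Asb2 was close to absent, whereas Steap4 and Nedd9 kept a level of more than 10 TPM.

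Ffar2 stood at 56.0 and 80.9 TPM, Gpr25 at 253 and 278 TPM and Ociad2 at 18.7 and 23.3 TPM in Vav-Cre Pax5 fl/fl progenitors. The differences were 5.53 ± 0.32 for Ffar2 (limma adjusted p = 5.34e-10), 8.0 ± 0.37 for Gpr25 (2.55e-11) and 5.63 ± 0.59 for Ociad2 (6.96e-07). Gpr25 thus moved from one of the scarcest to the most abundant of the 8 transcripts. Pdcd1, although its 2 libraries lay below the 5 wild-type libraries, did not pass, with a difference of -0.81 ± 0.34 (95% interval -1.53 to -0.10, limma adjusted p = 0.0683). It passed without the term for read length (-0.98, limma adjusted p = 0.0207), with a pseudocount of 1 (limma adjusted p = 0.0364), and without either of the 2 ∆CRD1,2/∆CRD1,2 libraries, which left its difference as it was (limma adjusted p = 0.0445 and 0.0452).

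**Figure D2:**
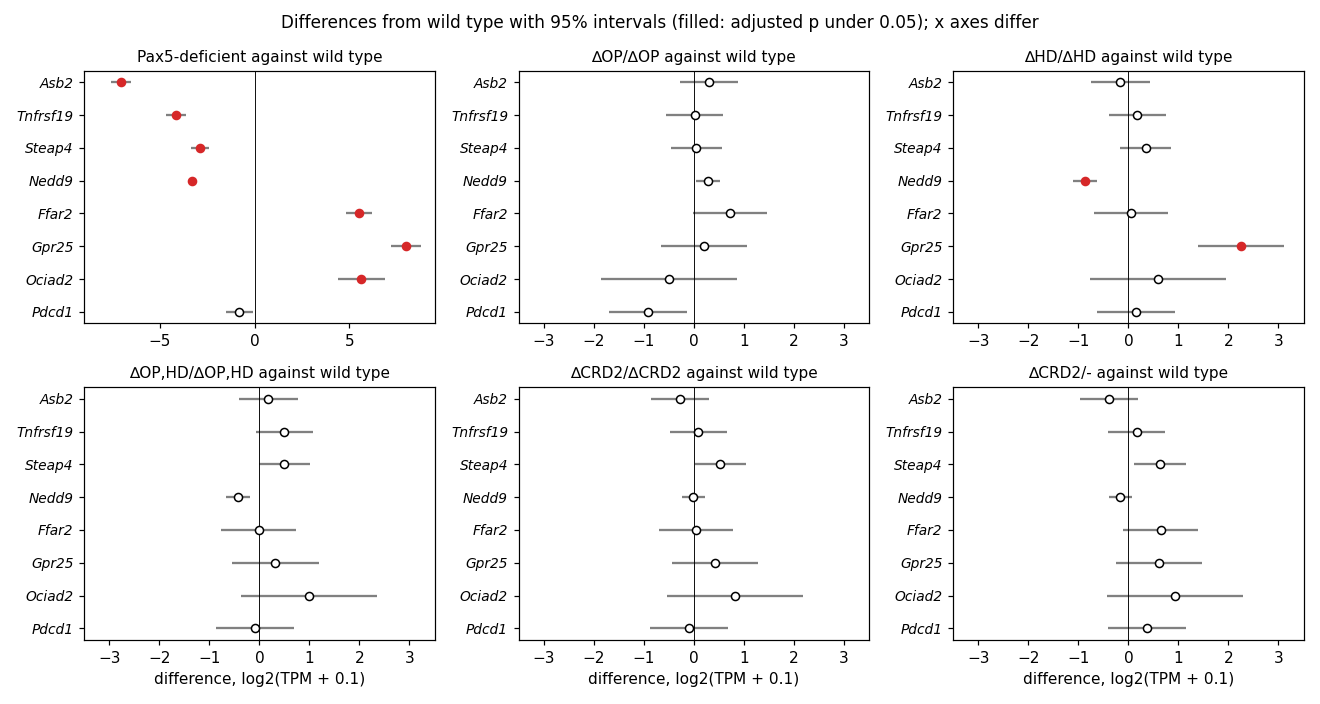
Differences from wild type on the log2(TPM + 0.1) scale with 95% intervals for the 8 genes in 6 genotypes. Filled points passed an adjusted p of 0.05, which were 7 genes in Pax5-deficient progenitors and Nedd9 and Gpr25 in ∆HD/∆HD cells, and the x axis of the first panel is wider.

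When the log2 distance from wild type to Pax5-deficient cells was set to 100% for each gene, the CRD mutants took intermediate places that differed between the genes. In ∆CRD1/∆CRD1 cells, Steap4 (-9.60%), Tnfrsf19 (-1.61%) and Asb2 (7.17%) were near wild type, and Gpr25 (38.9%), Ociad2 (29.2%), Nedd9 (26.7%) and Ffar2 (17.0%) had covered part of the distance. In ∆CRD1,2/∆CRD1,2 cells the places ran from 26.2% for Tnfrsf19 and 37.3% for Asb2 to 71.0% for Steap4 and 75.8% for Gpr25. In ∆CRD1,2/- cells Steap4 had reached 98.4%, its 10.1 and 14.4 TPM overlapping the 12.6 and 10.9 TPM without Pax5, while Tnfrsf19 was at 44.6% and Asb2 at 56.1%. The hemizygous double deletion therefore still held Tnfrsf19 4.93-fold and Asb2 10.7-fold above the level without Pax5, and Gpr25 3.10-fold and Ffar2 3.38-fold below it. These places rest on samples that chose the genes and carry no test.

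**Figure D3:**
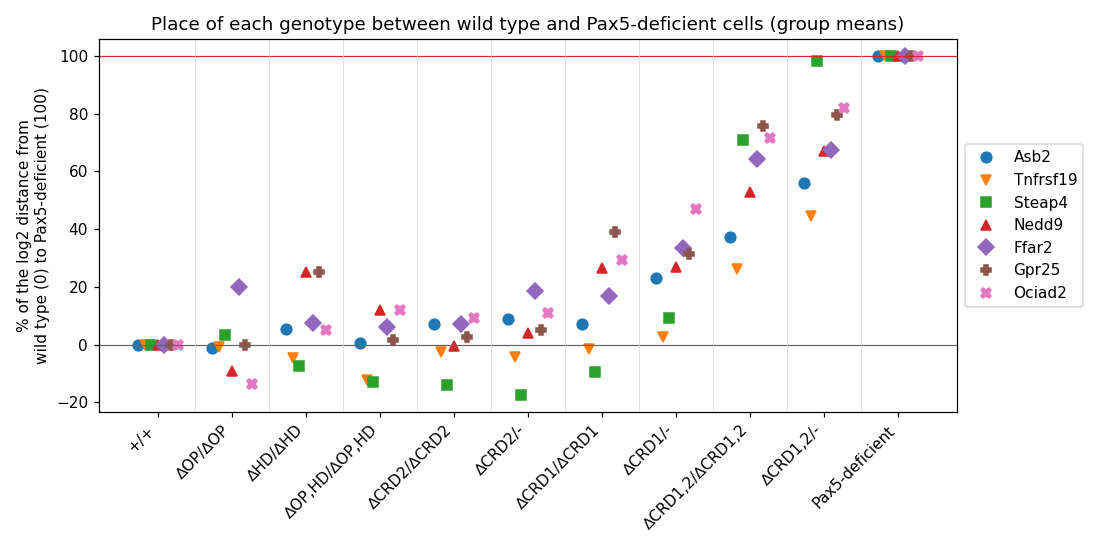
Place of each genotype between wild type (0%) and Pax5-deficient progenitors (100%) on the log2(TPM + 0.1) scale, with a point per gene from group means and Pdcd1 left out. Points of the central and ∆CRD2 deletions lie between -17.6% and 25.3%, and those of the ∆CRD1,2 genotypes between 26.2% and 98.4%.

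Deletions elsewhere in Pax5 asked whether the 8 genes need other domains. Loss of the homeodomain changed 2 of the 8 genes, where 1.00% of all genes tested passed. Nedd9 was at 140 and 131 TPM in ∆HD/∆HD cells, below all wild-type libraries (220 TPM or more), and fell by 0.87 on the log2 scale (SE 0.11, limma adjusted p = 0.000594). This level was close to its 131 TPM in ∆CRD1/∆CRD1 cells. Gpr25 was at 3.19 and 4.55 TPM, above all wild-type libraries (1.32 TPM or less), and rose by 2.25 ± 0.41 (limma adjusted p = 0.00891).

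The Gpr25 call rested on few libraries, as its adjusted p was 0.131 without wild-type replicate 3 and 0.104 without ∆HD/∆HD replicate 2. With the 100 nt libraries of the 2 groups alone, the limma adjusted p was 0.0918 for Nedd9 and 0.281 for Gpr25, in a comparison of 2 against 2 libraries in which 0 of all genes passed and 1117 had an unadjusted p under 0.05. The summed myeloid markers were 85.4 and 378 TPM in the ∆HD/∆HD libraries, within or below the range in wild type.

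Loss of the octapeptide left all 8 genes short of the threshold, where 1.02% of all genes passed (limma called 0 of the 8, edgeR on recovered reads called 0, and 2, Nedd9 and Pdcd1, had an unadjusted p under 0.05). Ffar2, at 3.72 and 3.25 TPM, lay above all wild-type libraries with a difference of 0.72 ± 0.35 (limma adjusted p = 0.307), in libraries whose summed myeloid markers exceeded those of every wild-type library. Pdcd1, at 3.53 and 4.58 TPM, lay below all wild-type libraries (-0.93 ± 0.37, limma adjusted p = 0.219). Nedd9, at 324 and 280 TPM, lay above all of them (0.29 ± 0.11, limma adjusted p = 0.211), opposite in direction to its fall in ∆HD/∆HD cells.

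With both central domains deleted, 0 of the 8 passed by limma and by edgeR, where 1.78% of all genes did, and Nedd9 alone had an unadjusted p under 0.05. Nedd9 was at 190 and 177 TPM, between ∆HD/∆HD and wild type, with a difference of -0.43 ± 0.11 (limma adjusted p = 0.0658). It passed without wild-type replicate 1 (limma adjusted p = 0.0451) and without the term for read length (limma adjusted p = 0.0199). Gpr25, at 0.786 and 1.09 TPM, was inside the wild-type range in these cells, and whether it differed from ∆HD/∆HD cells was not tested.

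Loss of CRD2 alone did not move any of the 8 genes past the threshold. In ∆CRD2/∆CRD2 cells, limma and edgeR called 0 of the 8, where 0.114% of all genes passed, and in ∆CRD2/- cells both called 0, where 1.50% passed. Steap4 had an unadjusted p under 0.05 in each, at 116 and 99.8 TPM in ∆CRD2/∆CRD2 (0.53 ± 0.24, limma adjusted p = 0.57) and 116 and 115 TPM in ∆CRD2/- cells (0.63 ± 0.24, limma adjusted p = 0.326). These values were at the top of the wild-type range and opposite in direction to its low level in the double deletions.

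The intervals set limits on what the CRD2 deletion could have done. For Gpr25 in ∆CRD2/∆CRD2 cells the 95% interval was -0.44 to 1.28 around 0.42, and for Nedd9 it was -0.24 to 0.23 around -0.01. Asb2 was at 30.1 and 33.2 TPM in ∆CRD2/∆CRD2 and 24.8 and 34.3 TPM in ∆CRD2/- cells, below all 5 wild-type libraries in both genotypes. Its differences from the 100 nt wild-type libraries alone (41.2 and 35.8 TPM) were -0.28 (95% interval -0.86 to 0.30) and -0.39 (-0.98 to 0.19). In ∆CRD2/- cells Ffar2 (4.17 and 2.60 TPM) and Pdcd1 (9.75 and 10.2 TPM) lay above all wild-type libraries. Their differences were 0.65 (95% interval -0.10 to 1.39) and 0.36 (-0.42 to 1.14). Ociad2, with few reads in these cells, had the widest intervals, up to 2.29 in ∆CRD2/- cells.

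The Prd experiment asked what the paired domain alone does, and none of its libraries had a part in the selection. Between Vav-Cre Pax5 fl/+ pro-B cells and Vav-Cre Pax5 fl/fl progenitors, all 8 genes differed, where 39.9% of the 12941 genes tested did so. The difference between fl/+ and fl/fl cells was 6.80 ± 0.26 for Asb2, 3.53 ± 0.29 for Tnfrsf19, 3.21 ± 0.20 for Steap4 and 3.25 ± 0.13 for Nedd9, and -5.78 ± 0.22 for Ffar2, -7.88 ± 0.28 for Gpr25 and -5.16 ± 0.26 for Ociad2. Pdcd1, at 8.06 and 7.11 TPM in fl/+ and 3.04 and 2.11 TPM in fl/fl cells, was higher by 1.54 ± 0.24 (limma adjusted p = 0.00347), in the same direction as the difference that missed the threshold in the first experiment. The summed myeloid markers were 27.9 and 43.1 TPM in fl/+, 72.6 and 87.4 TPM in Prd/fl and 89.9 and 165 TPM in fl/fl libraries, and 7 of 12 myeloid genes were higher and 1 was lower in fl/fl than in fl/+ cells. The summed NK and innate lymphoid markers were 0.819 and 0.896 TPM in fl/+, 6.41 and 10.3 TPM in Prd/fl and 5.52 and 7.78 TPM in fl/fl libraries, and the part of these markers in the results was not tested.

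All 8 genes also differed between Prd/fl progenitors and fl/+ pro-B cells, where 40.7% of all genes did, and in the direction of the loss of Pax5. Asb2 was at 0.149 and 0.191 TPM in Prd/fl progenitors against 47.2 and 53.5 TPM in fl/+ cells (-7.55 ± 0.26, limma adjusted p = 2.42e-05). Gpr25 was at 112 and 163 TPM against 0.662 and 1.25 TPM (7.06 ± 0.28, limma adjusted p = 3.29e-05). The paired domain alone was thus not accompanied by a level near that of fl/+ cells for any of the 8.

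Against fl/fl progenitors, Prd/fl progenitors differed by less. Limma called 0 of the 8, where 1.97% of all genes passed, 5 had an unadjusted p under 0.05, and edgeR on recovered reads called 4, namely Tnfrsf19, Steap4, Ffar2 and Gpr25. Tnfrsf19 was at 39.4 and 24.6 TPM in Prd/fl against 8.36 and 14.2 TPM in fl/fl cells, without overlap (1.51 ± 0.29, limma adjusted p = 0.0643, edgeR adjusted p = 0.0189). Steap4 was at 13.3 and 9.16 against 5.29 and 6.66 TPM (0.88 ± 0.20, limma adjusted p = 0.0910, edgeR adjusted p = 0.0371).

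The genes that rise without Pax5 lay below their fl/fl level. Ffar2 was at 42.6 and 44.4 TPM in Prd/fl against 77.4 and 114 TPM in fl/fl cells (-1.11 ± 0.22, limma adjusted p = 0.0645, edgeR adjusted p = 0.00636). Gpr25 was at 112 and 163 against 241 and 237 TPM (-0.82 ± 0.28, limma adjusted p = 0.199, edgeR adjusted p = 0.0436), and Ociad2 at 13.4 and 10.8 against 13.6 and 15.2 TPM (-0.26, 95% interval -0.89 to 0.38).

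As a share of the log2 distance from fl/+ to fl/fl, Prd/fl cells were at 57.3% for Tnfrsf19, 72.5% for Steap4, 80.8% for Ffar2, 89.6% for Gpr25, 91.7% for Nedd9, 95.1% for Ociad2, 111% for Asb2 and 137% for Pdcd1. Tnfrsf19 was also the gene with the shortest distance covered in the ∆CRD1,2 deletions, and Pdcd1 again lay beyond the level without Pax5. For Pdcd1 the difference between Prd/fl and fl/fl cells was -0.57 (95% interval -1.16 to 0.01). Asb2 also lay beyond that level, at 0.149 and 0.191 TPM in Prd/fl against 0.380 and 0.327 TPM in fl/fl cells. It had 5 to 19 reads in these libraries, and its difference was -0.75 ± 0.26 (limma adjusted p = 0.197). Without Prd/fl replicate 2, Tnfrsf19 (1.84, limma adjusted p = 0.0348) and Steap4 (1.15, 0.0263) passed against fl/fl. The number of genes called in this comparison was unstable, between 1 and 1565 of all genes when a library was left out against 255 with all 6, and 59.6% of the genes called were higher in Prd/fl cells, or 47.7% after scaling by trimmed means (TMM).

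**Figure D4:**
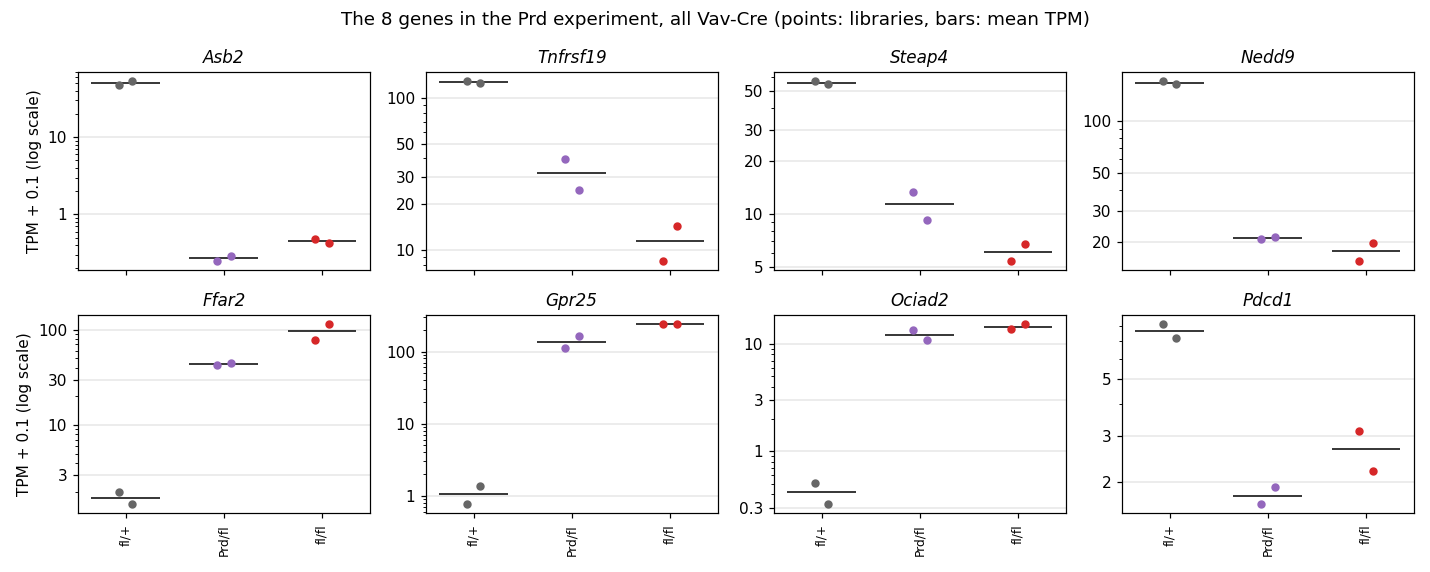
Transcript levels of the 8 genes in the 6 libraries of the Prd experiment, plotted as TPM + 0.1 on log axes with points for libraries and bars for group means. The Prd/fl mean lies nearer to the fl/fl than to the fl/+ mean in every panel. In the Prd/fl libraries, Tnfrsf19, Steap4 and Nedd9 lie above both fl/fl libraries, and the other genes lie below both.

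Progenitors without Pax5 can enter the T cell lineage, and the 17 T-lineage libraries placed the 8 genes along that path. These tables were made with another genome build and scaling, so that levels are compared within them alone. Tnfrsf19 (0.718 TPM or less) and Steap4 (0.732 TPM or less) stayed under 1 TPM in all of them and were not tested. The other 6 varied over the stages by limma's F test, where 84.1% of the 13482 genes tested did so.

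Of the genes that are high with Pax5, Asb2, Tnfrsf19 and Steap4 were at 2.26 TPM or less in all of these libraries. Asb2 was highest in DN1 cells at 0.890, 0.895 and 2.26 TPM, fell at DN2a (-2.44 ± 0.43, limma adjusted p = 0.000831), and was listed at 0 in both DN3b libraries. Nedd9 alone of this group was expressed throughout, at 13.4 and 12 TPM in LMPPs, 38.7, 39.7 and 37.2 TPM in DN1, 18.6, 19.8 and 22.5 TPM in DN2a, 20.5, 15.9 and 18.5 TPM in DN2b, 14.9 and 15.2 TPM in DN3a, and 11.9 and 10.3 TPM in DN3b cells. It rose into DN1 (1.59 ± 0.14, limma adjusted p = 1.79e-06) and fell into DN2a (-0.93 ± 0.12, limma adjusted p = 9.12e-05), with neighbouring stages between DN2a and DN3a not differing past the threshold.

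Ffar2 and Gpr25, which rise together without Pax5, parted on this path. Ffar2 was at 26.6 and 34.1 TPM in LMPPs, 98.3, 99.8 and 99.6 TPM in DN1, 31.2, 33.5 and 36.4 TPM in DN2a, 3.60, 2.70 and 3.45 TPM in DN2b, 0.0377 and 0.0994 TPM in DN3a, and 0.115 and 0.131 TPM in DN3b cells. It rose into DN1 (1.72 ± 0.20) and fell at each of the next 3 steps (-1.56 ± 0.18, -3.34 ± 0.18 and -4.33 ± 0.20, limma adjusted p at or below 2.07e-05). The summed myeloid markers followed the same order, with 1307 to 1534 TPM in LMPPs, 1722 to 1946 in DN1, 430 to 472 in DN2a, 6.37 to 21.4 in DN2b and at most 1.10 in DN3a and DN3b cells, and their part in the Ffar2 level was not tested.

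Gpr25 was at 3.62 and 5.74 TPM in LMPPs and at 243, 179 and 192 TPM in DN1 cells, the largest difference of the 6 tested genes at this step (5.44 ± 0.23, limma adjusted p = 1.80e-09). It then stayed high, at 283, 229 and 352 TPM in DN2a, 337, 250 and 285 TPM in DN2b, 360 and 316 TPM in DN3a, and 226 and 193 TPM in DN3b cells, and the steps from DN1 to DN3a did not pass. Its drop at DN3b (-0.69 ± 0.25, limma adjusted p = 0.0324) was lost without any one of the 4 DN3a and DN3b libraries (limma adjusted p between 0.0576 and 0.165).

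Ociad2 was at 22.5 and 17.6 TPM in LMPPs, 15.8, 16.4 and 17.3 TPM in DN1, 16.2, 21.4 and 13.6 TPM in DN2a, 8.02, 9.10 and 9.96 TPM in DN2b, 14.2 and 15.3 TPM in DN3a, and 4.13 and 3.03 TPM in DN3b cells. Up to DN2a its stages overlapped or lay close together, and it fell at DN2b (-0.89 ± 0.17, limma adjusted p = 0.00239) and at DN3b (-2.03 ± 0.21, limma adjusted p = 3.62e-06). The rise between them at DN3a (0.71 ± 0.19, limma adjusted p = 0.00950) was lost without DN3a replicate 2 (limma adjusted p = 0.0736).

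Pdcd1 moved at 4 of the 5 steps. It rose from 1.04 and 0.821 TPM in LMPPs to 17.0, 14 and 18.1 TPM in DN1 (4.00 ± 0.25, limma adjusted p = 6.54e-08), fell to 9.45, 5.28 and 9.51 TPM in DN2a (-1.05 ± 0.22), and rose to 32.4, 30.8 and 28.8 TPM in DN2b (1.96 ± 0.22, limma adjusted p = 2.62e-05). DN3a cells, at 32.1 and 24.5 TPM, did not differ from DN2b past the threshold, and DN3b cells had the highest level at 76.2 and 56.2 TPM (1.22 ± 0.27, limma adjusted p = 0.00175).

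With same-numbered libraries averaged, the number of the 8 genes called at each step stayed the same. In numbers of the 8, 4 passed from LMPP to DN1 (18.6% of all genes), 4 from DN1 to DN2a (33.7%), 3 from DN2a to DN2b (18.2%), 2 from DN2b to DN3a (45.8%) and 4 from DN3a to DN3b (53.4%). The median difference of all genes was itself off 0 in these TPM values, at -0.41 from DN3a to DN3b, 0.27 from DN2b to DN3a and -0.18 from DN1 to DN2a, with 26.5%, 68.5% and 32.2% of the genes called being higher. After TMM scaling the medians were -0.17, 0.05 and 0.00, and 40.1%, 52.1% and 50% were higher (50.9% instead of 36.2% from LMPP to DN1). On that scale Gpr25 (-0.43, limma adjusted p = 0.106) and Nedd9 (-0.18, limma adjusted p = 0.309) did not pass at DN3b and Ociad2 did not pass at DN3a (limma adjusted p = 0.136), while Ffar2 at DN3b (0.54, 0.0427), Nedd9 at DN3a (-0.50, 0.00618) and Gpr25 at DN2a (0.68, 0.00891) passed. The call of Nedd9 at DN3b (-0.44 ± 0.15, limma adjusted p = 0.0256) was also lost without DN3a replicate 1 or 2 or DN3b replicate 2 (limma adjusted p between 0.0716 and 0.170).

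Rag2 -/- DN3a cells cannot assemble a T cell receptor β chain, and 3 of the 8 genes differed in them from wild-type DN3a cells, where 26.4% of all genes did (26.2% of these were higher, and 41.5% after TMM scaling, with medians of -0.18 and -0.01). Pdcd1 was at 7.91 and 10 TPM, below all DN2b, DN3a and DN3b libraries, and fell by 1.65 (SE 0.27, limma adjusted p = 0.000863). Gpr25 was at 179 and 126 TPM and fell by 1.17 (SE 0.25, limma adjusted p = 0.00442), a call lost without Rag2 -/- replicate 2 (limma adjusted p = 0.0582). Ffar2 was listed at 0 in both libraries against 0.0377 and 0.0994 TPM, and although it passed (limma adjusted p = 0.0240), its call was lost with a pseudocount of 1 (limma adjusted p = 0.694) and when any of 3 libraries was left out (limma adjusted p between 0.0811 and 0.195). Ociad2, at 22.3 and 20.1 TPM, was above both wild-type DN3a libraries (0.52 ± 0.21, limma adjusted p = 0.0866).

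**Figure D5:**
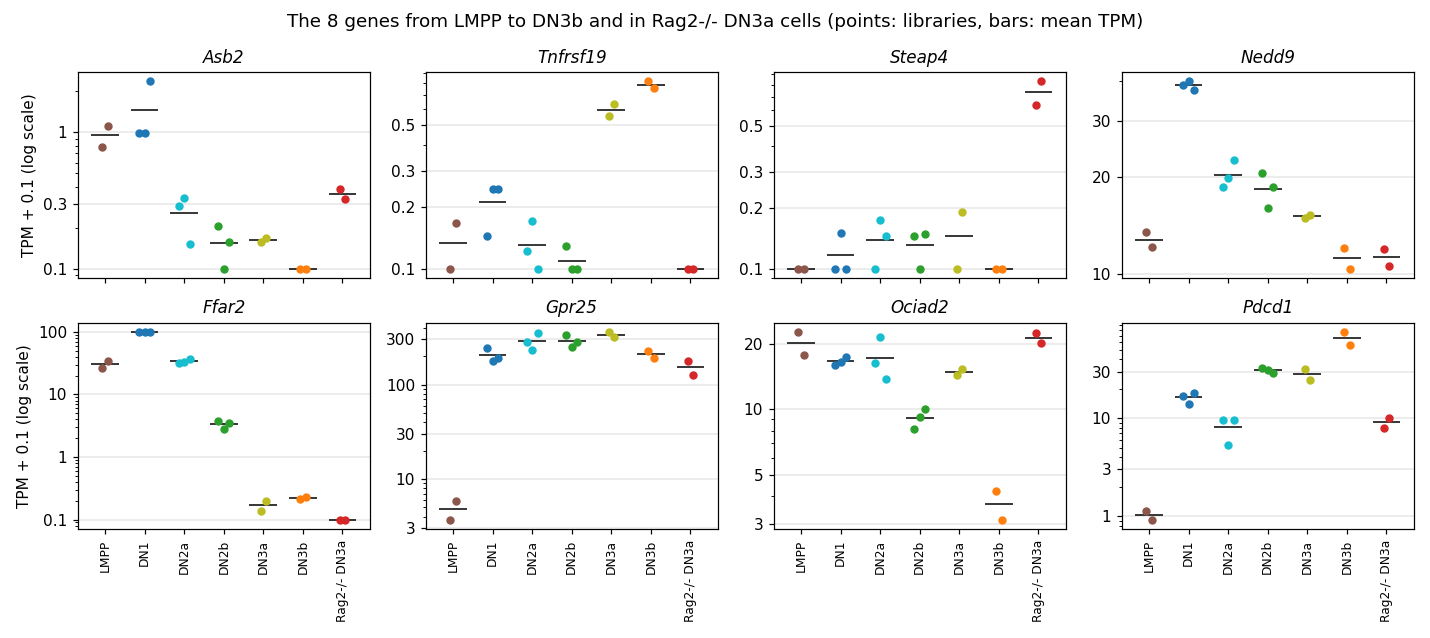
Transcript levels of the 8 genes in the 17 T-lineage libraries, from LMPP to DN3b with Rag2 -/- DN3a cells, as TPM + 0.1 on log axes that differ between panels, with points for libraries and bars for group means. Ffar2 peaks in DN1 near 100 and drops under 0.2 by DN3a, Gpr25 stays above 100 from DN1 on, and Pdcd1 is highest in DN3b.

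Relatives of the 8 genes were read in the same comparison of Vav-Cre Pax5 fl/fl progenitors with wild type. Among 9 tested genes of the CD28 and PD-1 family, 6 rose and 0 fell in Vav-Cre Pax5 fl/fl progenitors, among them the inhibitory receptor Ctla4 (5.62), the costimulatory receptors Cd28 (3.64) and Icos (3.73) and the ligand Icosl (3.18). Pdcd1 was thus unlike most relatives in its family, whose median difference was 2.60 against 0.00 for all genes. Among 20 tested TNF receptor genes, 10 rose, such as Cd27 (2.64), Ltbr (2.92) and Tnfrsf1a (2.22), and 3 fell, namely Tnfrsf19, Tnfrsf8 (-5.48) and Cd40 (-3.67), with a median of 0.53.

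Of the G protein-coupled receptors of lymphocytes listed with Gpr25, 6 of 7 tested rose and 0 fell, including Gpr34 (4.25), Gpr174 (2.55), P2ry14 (2.17) and Gpr18 (2.12), with a median of 2.17. Of 2 free fatty acid receptors tested, Ffar2 rose and Ffar1, a receptor of longer fatty acids, fell (-4.27). The mean of Ffar1 did not exceed 5 TPM in any genotype of the first experiment. Of 2 Cas family genes tested, Nedd9 fell and Cass4 rose (2.26), at 21.1 TPM in wild type and 86.9 TPM without Pax5. These pairs moved in opposite directions within a family.

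Steap3 (-0.13) and Ociad1 (0.32) did not pass where Steap4 fell and Ociad2 rose. Of 8 tested genes with ankyrin repeats and a SOCS box, Asb2 and Asb1 (-0.77) fell and 0 rose. Among lists of cell types, 9 of 17 T-lineage genes rose and 2 fell, 4 of 6 NK and innate lymphoid genes rose and 2 fell, 1 of 12 myeloid genes rose and 0 fell, and 1 of 4 erythroid genes fell and 0 rose. Their medians were 0.99, 2.52, 0.65 and -1.61. All of these lists were chosen with earlier results known, and 37.1% of all genes passed in this comparison.

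Other genes followed the 8 closely over the 11 genotypes, as judged by Pearson's r of group means of log2(TPM + 0.1) among 10935 genes above 5 TPM in a genotype. The nearest were Pcp4l1 (0.995) and Lef1 (0.992), a transcription factor of the Wnt pathway, for Asb2, Eps8 (0.996) and Adgrl2 (0.986) for Tnfrsf19, Hspa12b (0.981) and Reln (0.978) for Steap4, and Ptgr1 (0.989) and Reep2 (0.987) for Nedd9. Lef1 was at 581 TPM in wild type, 458 in ∆CRD1/∆CRD1, 101 in ∆CRD1,2/∆CRD1,2 and 15.0 without Pax5, in the same order as Asb2.

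Lsr (0.986) and Zfp599 (0.978) were nearest to Ffar2, Chn2 (0.988) and AI467606 (0.983) to Gpr25, and Ppp1r3b (0.993) and Grap2 (0.984), an adaptor of T cell receptor signalling, to Ociad2. Grap2 was at 12.5 TPM in wild type, 23.1 in ∆CRD1/∆CRD1, 47.2 in ∆CRD1,2/∆CRD1,2 and 93.1 without Pax5. Lman2l (0.97) and ENSMUSG00000094689.1 (0.969) were nearest to Pdcd1. The 11 points share libraries, sorts and read lengths, and a high r over them is a description.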

How the data were processed

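The authors aligned RNA-seq reads, trimmed to 50 nt, to GRCm38 with STAR 2.4.2a (per the submitters' processing notes and the methods), counted them per gene and deposited TPM values. The T-lineage TPM tables, also deposited by the authors, rest on mm9, hold 2 entries per gene, which were averaged, and an entry of exactly 1 was read as 0. Genes above 1 TPM in at least 1 library were tested with limma 3.58.1 (R 4.3.3) on log2(TPM + 0.1), two-sided, with an intensity trend, Benjamini-Hochberg adjustment over all genes tested, and read length as a term in the 25-library model. Whole read counts were recovered from the deposited TPM steps (100% of values whole within 0.05) and tested with edgeR 4.0.16 as an alternative. Low levels limit precision through their read numbers. Replicates are libraries that the labels number, and where separate mice are not named, p-values measure the spread between libraries. The members and all gene lists were chosen with earlier results of these data known. All 8 members were named, and for each the 2 genes of highest Pearson's r. Scripts were tested on simulated data. ATAC-seq and ChIP-seq samples were not analysed here. Some marker results are not reported here.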

Additional observations from a re-analysis of the deposited data

How the results depend on the processing

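Directions of called differences held under the alternatives run, except that Ffar2 in Rag2 -/- against wild-type DN3a cells turned to 2.73 when entries of exactly 1 were kept as values. The number of the 8 genes called in ∆HD/∆HD cells was 0 within 1 read length and 1 to 2 when a library was left out, and in ∆OP,HD/∆OP,HD cells it was 1 without the read length term and 0 to 1 when a library was left out. Between Prd/fl and fl/fl progenitors it was 1 with a pseudocount of 1, 4 with edgeR and 0 to 2 when a library was left out. When a library was left out it was 1 to 2 at DN3a, 2 to 4 at DN3b and 1 to 4 in Rag2 -/- cells, where it was 5 without a filter on low values. Of all genes, 447, 346, 521, 44 and 342 were called in ∆OP/∆OP, ∆HD/∆HD, ∆OP,HD/∆OP,HD, ∆CRD2/∆CRD2 and ∆CRD2/- cells without the read length term, against 143, 140, 249, 16 and 210 with it. Within 1 read length they were 7, 0, 5, 0 and 13 (limma, with 1806, 1117, 1239, 452 and 835 at an unadjusted p under 0.05), and 3278 against 5194 in Vav-Cre Pax5 fl/fl progenitors. Between ∆CRD2/∆CRD2 and wild type, 25 were called with a pseudocount of 1, 28 without the trend and 220 without ∆CRD2/∆CRD2 replicate 2. Between Prd/fl and fl/fl cells, 128 were called without a filter, 53 without the trend and 470 with edgeR, against 255. With same-number libraries averaged, 2324 were called at DN2a and 1602 at DN2b, against 4549 and 2458. Leaving out a library gave as few as 32, 52, 96 and 76 calls in the ∆OP/∆OP, ∆HD/∆HD, ∆OP,HD/∆OP,HD and ∆CRD2/- comparisons. The cause of these changes was not tested. The differences between same-numbered libraries correlated at -0.10 to 0.08 among the wild-type, ∆CRD1/∆CRD1 and Vav-Cre Pax5 fl/fl libraries of 50 nt. They correlated at -0.16 to 0.05 in the Prd and -0.41 to 0.18 in the T-lineage libraries. Replicate numbers thus did not pair the libraries throughout. In the T-lineage libraries the values were 0.18 for LMPP and DN2a and 0.14 for DN1 and DN2b. They were -0.41 for DN2a and DN2b, -0.24 for LMPP and DN2b, -0.16 for DN1 and DN2a and -0.10 for LMPP and DN1. A block of crossed numbers was not run for these stages, and their tests took the libraries as independent. With the replicate number as a block, 3807 genes were called in Vav-Cre Pax5 fl/fl progenitors and 4911, 207 and 5052 in the Prd comparisons, and the number of the 8 genes called was 7, 8, 0 and 8 as without it. With crossed numbers, an alternative chosen after seeing the data, the Prd comparisons called 5093, 186 and 5203 genes and 1 of the 8 between Prd/fl and fl/fl cells.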
